A study of Homo sapiens with 4 samples.

Results

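Chemokines are small secreted or membrane-tethered proteins that direct the movement of cells, and they are sorted into CC, CXC, XC and CX3C classes by the spacing of their first cysteines. They act on conventional receptors, which signal through G proteins, while atypical receptors bind chemokines and clear them without that signal. The NanoString panel used here held 61 probes whose symbols begin with the names of these ligands and receptors, of 785 gene probes in all. They were chosen by symbol alone. By role they were 24 CC ligands, 14 CXC ligands, 2 XC and CX3C ligands, 18 conventional receptors and 3 atypical receptors. The 3 probes CCL3/L1/L3, CCL4/L1/L2 and XCL1/2 each read several near-identical gene copies that cannot be told apart.

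The samples were bulk total RNA from 4 lines of HAP1, a human cell line with a nearly haploid genome. NanoString counting reads the barcode of each probe-bound RNA molecule one by one, with no amplification. Wild-type lines 1 and 7 were compared with MATR3 knockout lines 1 and 5, each group having n = 2. MATR3 encodes the RNA-binding nuclear matrix protein matrin 3, and the series title names activation of the cGAS-STING pathway, which senses DNA in the cytosol. All lines came from one supplier and grew in the same serum-supplemented medium, and the labels name no stimulus. Each knockout line carries a clone number. The wild-type lines were supplier batches that the labels equate with clones, so clone, batch and genotype cannot be told apart. Nothing in the labels says that repeat cultures were taken. Differences between the lines of a group and technical error therefore cannot be told apart in the spread within that group. The p-values rest on that spread and on a variance borrowed from genes of like abundance. The level of MATR3 was not analysed here, and no value checks the genotype labels. In bulk RNA, fewer cells expressing a gene and less RNA per cell cannot be told apart.

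Values are normalised counts, the authors' probe counts multiplied by 1 factor per sample. Total gene counts ranged from 448610 to 571767. Each sample had a background limit, taken from its 8 negative control probes, which have no target in the sample, as their mean plus 2 SD on the scale of the genes. Wild-type lines 1 and 7 had limits of 25.7 and 21.1 normalised counts, while the limits of knockout lines 1 and 5 were 19.5 and 21.7. Of 23 measured leukocyte markers out of 29 listed, 17 lay above the limit in no sample. PTPRC, the pan-leukocyte surface protein CD45, was between 6.68 and 9.39 normalised counts. The monocyte and macrophage markers CD14 and CD68 were the 2 above it in all 4 samples, and no marker was listed at 0. The best counted were CD68, CD14 and GNLY, a granule protein of cytotoxic lymphocytes, with means over the samples of 36.3, 30.9 and 22.5. The summed level of the measured markers was 317 and 379 in wild-type lines 1 and 7, against 312 and 234 in knockout lines 1 and 5.

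CXCL10 is the member best known as a target of innate sensing, and CXCL3 is a neutrophil attractant encoded on the same chromosome. Both promoters are shown because CXCL10 was read at background and CXCL3 was not, although each carries textbook immune motifs. The windows are the 250 bases before the transcription start in the RefSeq table of build GRCh38.p14, 5′ to 3′ on the gene's strand. They span chr4:74038690-74038939 for CXCL3 and chr4:76023498-76023747 for CXCL10, both on the minus strand. Capitals mark matches to the kB consensus, the motif bound by NF-kB, and to GAAANNGAAA, an interferon-response-like motif, each searched on both strands.
CXCL3: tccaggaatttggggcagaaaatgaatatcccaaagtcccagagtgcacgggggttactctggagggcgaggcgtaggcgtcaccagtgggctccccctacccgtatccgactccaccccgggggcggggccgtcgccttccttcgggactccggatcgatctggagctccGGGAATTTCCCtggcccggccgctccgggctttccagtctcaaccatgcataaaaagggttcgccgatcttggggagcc
CXCL10: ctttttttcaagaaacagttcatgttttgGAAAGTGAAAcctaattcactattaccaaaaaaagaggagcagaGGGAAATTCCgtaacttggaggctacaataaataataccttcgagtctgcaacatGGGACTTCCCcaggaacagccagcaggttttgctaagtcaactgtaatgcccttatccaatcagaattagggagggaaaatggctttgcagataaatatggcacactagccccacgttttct

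In CXCL3 the capitals are 1 kB match on each strand that overlap. In CXCL10 they are, in order, the GAAANNGAAA match and kB matches that begin 177 and 122 bases before the start. Of the 61 members, 43 had a window in the table, and CXCL16 and CCL2 were not among them. A kB match stood in 10 of the 43 (23.3%), against 5.05% of all 27305 windows of that length. The 10 were CCL20, CCL22, CCR3, CXCL1, CXCL2, CXCL3, CXCL5, CXCL6, CXCL10 and CXCL11. Of these 10, CXCL3 was above the background limit in all 4 samples. Of all 61 members 7 were, but ACKR4, CCL2 and CXCL16 among these 7 had no window to search. GAAANNGAAA stood in 4 of the 43, CCR6, CXCL9, CXCL10 and XCR1, against 3.07% of all windows. Of these 4, XCR1 was above the limit in all samples. A match is a run of letters and says nothing of binding in these cells.

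Most chemokines and chemokine receptors were read near background in HAP1. Above the limit in all 4 samples were 7 of the 61 members, against 49.6% of all gene probes. They were the ligands CXCL16, CXCL14, CXCL3 and CCL2, the conventional receptors CXCR4 and XCR1, and the atypical receptor ACKR4. Above the limit in no sample were 20 members, against 25.4% of all gene probes, with means from 1.57 to 13.6 normalised counts. The other 34 passed the limit in 1 to 3 samples. The number of members above the limit was 14 in wild-type line 1, 36 in wild-type line 7, 26 in knockout line 1 and 8 in knockout line 5. Over all gene probes the shares above the limit were in the same order, at 57.1%, 71.1%, 65.6% and 52.1% in those lines. With the limit at the mean plus 3 SD, 5 members remained above it in all samples, since CXCR4 and XCR1 dropped out. The highest negative control probe as the limit left 6, without CXCR4. Without knockout line 5, 11 members passed in all of the other lines.

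**Figure D1:**
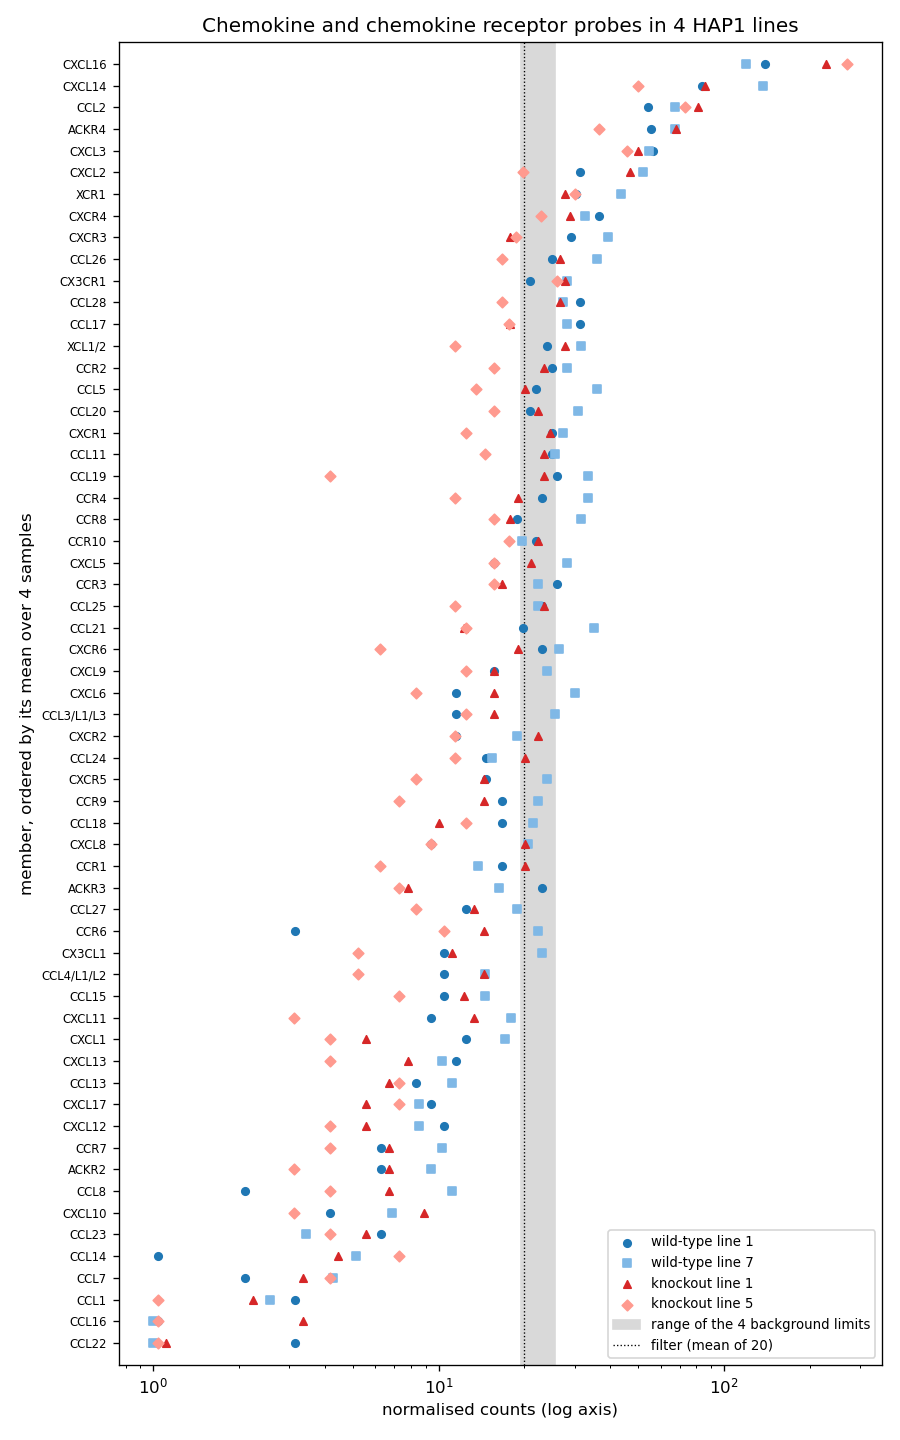
Normalised counts (log axis) of 60 of the 61 members in 4 HAP1 lines, ordered by their mean over the samples; the grey band spans the 4 background limits, from 19.5 to 25.7, and the dotted line is the filter at a mean of 20. CXCL16 stands highest, with all 4 values between 119.8 and 271, and most members lie within or left of the band.

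Of 40 textbook pairs with both members on the panel, chosen with the values known, none had both above the limit in all 4 samples. The ligand passed alone in 4 of these pairs and the receptor passed alone in 5. Only 7 of the 61 members passed in all samples, so few pairs could have done so. MIF and its receptor CXCR4, a pair outside this set, were both above the limit in all 4 samples. CXCL16 passed while CXCR6, the receptor for it, was at 23.0 and 26.5 in wild-type lines 1 and 7 and at 18.9 and 6.24 in knockout lines 1 and 5. CXCR4, a widely expressed homing receptor, passed while its ligand CXCL12 was at 10.4, 8.56, 5.56 and 4.16 in the same order. ACKR4, which scavenges CCL19, CCL21 and CCL25, passed while none of these ligands did so in all samples.

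Between knockout and wild type, 1 of the 27 members tested passed the threshold of an adjusted p of 0.05 with limma, against 8.17% of the 514 tested genes, 6.23% being higher in the knockout and 1.95% lower. The test used genes with a mean of 20 or more, which kept 27 of 61 members and 65.5% of all gene probes, and p-values were adjusted over all tested genes. The member was CXCL16, which rose. It is a transmembrane chemokine that is also shed and that draws CXCR6-bearing T cells, and it also binds oxidised lipoprotein. No member was called lower by limma. At an unadjusted p under 0.05 limma gave 4 members, 3 of them lower, against 19.8% of tested genes, and edgeR on the recovered counts called 0 lower. Single lines moved the fold changes of members that did not pass. Without knockout line 1 the log2 fold change was -1.08 for CXCL14, -2.56 for CCL19 and -1.20 for CCR4 and XCL1/2. A fit without 1 line leaves a group with 1 line and no spread, so only its effect size is given.

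CXCL16 was at 139.8 and 119.8 in wild-type lines 1 and 7, and at 228 and 271 in knockout lines 1 and 5. Both knockout values lay above both wild-type values, and every value was at least 5.45 times the limit of its sample. The group means were 129.8 ± 14.1 and 249 ± 30.0 (SD, n = 2), a ratio of 1.92. The log2 fold change was 0.94 ± 0.16 (SE; 95% interval 0.59 to 1.28; limma adjusted p = 0.00331). It ranked 12 by size among the 32 genes called higher. Before scaling, the recovered counts were 134 and 140 for wild-type lines 1 and 7, against 205 and 260 for the knockout lines. Exact Poisson intervals, which cover counting error only, were 112 to 159 and 118 to 165 for the wild-type lines. For the knockout lines they were 178 to 235 and 229 to 294. No wild-type interval met a knockout one, but these counts are unscaled and each sample has its own factor. The intervals are thus not on a shared scale, and they leave out differences between lines. Limma without the trend ended the call, with an adjusted p of 0.107. The other alternatives that kept all 4 lines kept the call, with an adjusted p from 5.74e-05 to 0.00722 (limma or edgeR). Over all 15 alternatives the log2 fold change ran from 0.81 to 1.06.

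**Figure D2:**
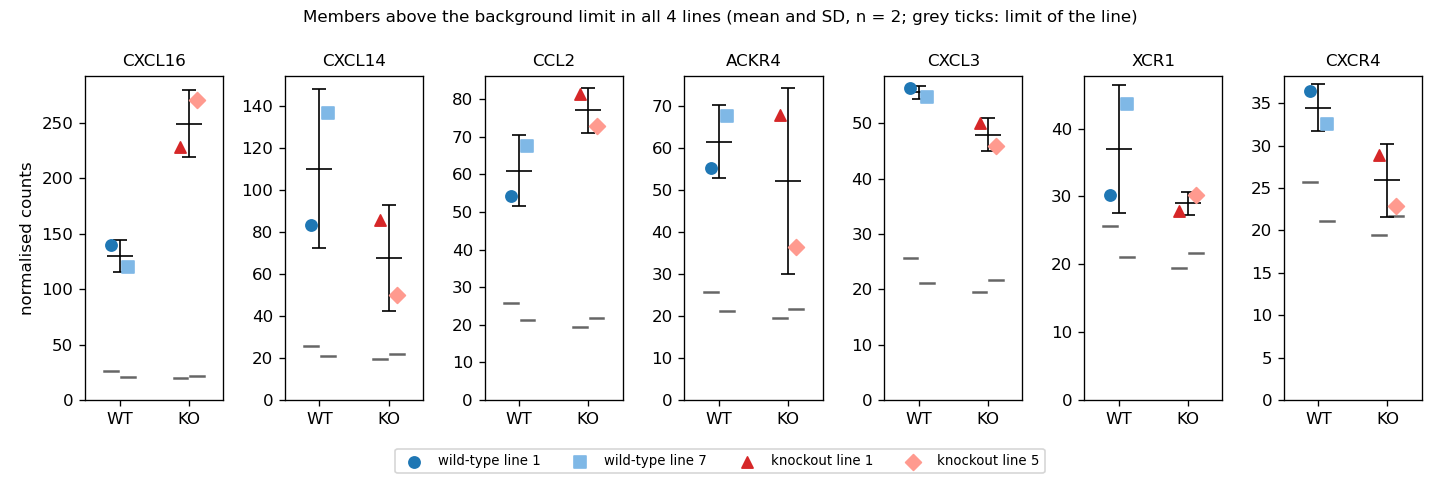
Normalised counts of the 7 members above the background limit in all 4 lines, 1 panel each, with points for the lines, the mean and SD of each group (n = 2) and grey ticks for the limit of each line. The knockout points of CXCL16, at 228 and 271, lie above its wild-type points, at 139.8 and 119.8, while those of CXCL14 and ACKR4 overlap the wild type.

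The other CXC ligands that could be tested did not pass. CXCL14, a ligand made constitutively by many epithelia, was at 83.5 and 137 in wild-type lines 1 and 7 and at 85.7 and 49.95 in knockout lines 1 and 5. The groups overlapped, since knockout line 1 lay above wild-type line 1. Its log2 fold change was -0.70 ± 0.30 (SE; 95% interval -1.35 to -0.05; limma adjusted p = 0.216). The value rested on single lines: it was -1.05 (adjusted p = 0.0042) when wild-type line 1 was left out and -1.08 (adjusted p = 0.0197) when knockout line 1 was, and passed there. Elsewhere it did not pass, with an adjusted p up to 0.725.

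CXCL3 and CXCL2 attract neutrophils through CXCR2. CXCL3 was at 56.3 and 54.8 in wild-type lines 1 and 7 and at 50.1 and 45.8 in knockout lines 1 and 5. Both knockout values lay below both wild-type values, but the log2 fold change of -0.21 ± 0.25 (SE; 95% interval -0.76 to 0.34; limma adjusted p = 0.626) was within its error. Where values are set against each other below, those of wild-type lines 1 and 7 come before those of knockout lines 1 and 5, in that order. CXCL2 was at 31.3 and 52.2 against 46.7 and 19.8. CXCL5, another CXCR2 ligand, was at 15.6 and 28.2 against 21.1 and 15.6. Both genes overlapped between groups, and the lines of a group differed more than the group means. CXCL10 was at 4.17 and 6.84 in the wild type and at 8.90 and 3.12 in the knockout, below the limit in every sample. No change of CXCL10 was detectable at this level.

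Among the CC ligands only CCL2, which draws monocytes through CCR2, was above the limit in all 4 samples. It was at 54.2 and 67.6 in wild-type lines 1 and 7 and at 81.2 and 72.8 in knockout lines 1 and 5. Both knockout values lay above both wild-type values, with means of 60.9 ± 9.43 and 77.03 ± 5.93 (SD, n = 2). The log2 fold change of 0.34 ± 0.23 (SE; adjusted p = 0.445, limma) did not pass, and its 95% interval ran from -0.17 to 0.85. CCL2 and CXCL16 were the 2 members whose knockout values both lay above the wild type, against 16.4% of all gene probes.

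The other 8 tested CC ligands had lower means in the knockout, and none passed with limma; CCL19 alone had an unadjusted p under 0.05, and edgeR called none. CCL19, which guides cells to lymph nodes through CCR7, was at 26.1 and 33.4 in wild-type lines 1 and 7, and at 23.4 and 4.16 in knockout lines 1 and 5. Its log2 fold change of -1.44 ± 0.65 (SE; adjusted p = 0.251, limma) was the lowest of the tested members and rested on knockout line 5. Leaving out knockout line 1 gave -2.56, and leaving out knockout line 5 gave -0.32. CCL17, a CCR4 ligand, was at 31.3 and 28.2 in the wild type and at 17.8 and 17.7 in the knockout. The lines of each group differed little, yet at these levels the log2 fold change of -0.71 ± 0.38 (SE; adjusted p = 0.323, limma) did not pass.

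CCL5, a T cell attractant that is also a textbook target of innate sensing, was at 21.9 and 35.9 in wild-type lines 1 and 7 and at 20.03 and 13.5 in knockout lines 1 and 5. Its knockout values were below those of the wild type, and its log2 fold change was -0.73 ± 0.44 (SE; adjusted p = 0.387, limma). CCL11, an eosinophil attractant, was at 25.04 and 25.7 against 23.4 and 14.6. CCL26, which acts on the same receptor, was at 25.04 and 35.9 against 26.7 and 16.6. The groups of CCL26 overlapped and those of CCL11 did not. CCL20, the ligand of CCR6, was at 20.9 and 30.8 against 22.3 and 15.6. The gut chemokine CCL25 was at 22.9 and 22.2 against 23.4 and 11.4. The mucosal chemokine CCL28 was at 31.3 and 27.4 against 26.7 and 16.6. In each of these 6 genes knockout line 5 had the lowest value of the 4 lines.

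The XCL1/2 probe, which reads both lymphotactin genes, was at 24.0 and 31.7 in wild-type lines 1 and 7 and at 27.8 and 11.4 in knockout lines 1 and 5. Its log2 fold change was -0.59 ± 0.47 (SE; adjusted p = 0.478, limma) and the groups overlapped. Leaving out knockout line 1 gave -1.20, and leaving out knockout line 5 gave 0.012. CX3CL1, a membrane-tethered ligand, was below the filter, at 10.4 and 23.1 against 11.1 and 5.20.

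**Figure D3:**
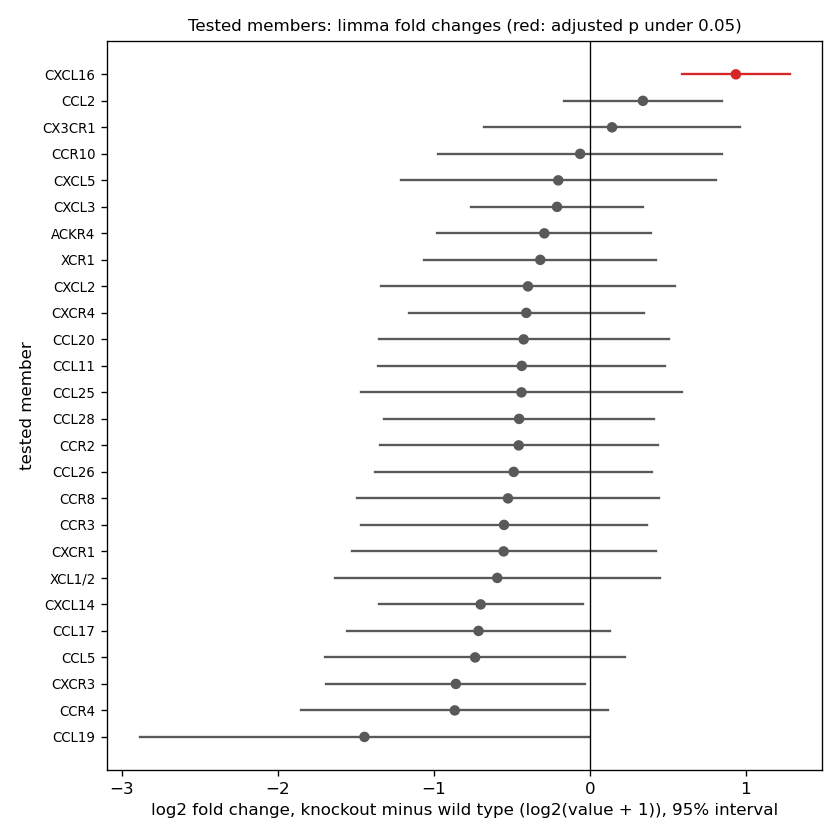
Limma log2 fold changes (knockout minus wild type, on the log2(value + 1) scale) of 26 of the 27 tested members with 95% intervals; red marks an adjusted p under 0.05. The interval of CXCL16, from 0.59 to 1.28, lies above 0, those of CXCL14, CXCR3 and CCL19 lie just below 0, and the other 22 drawn include 0.

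Of the 18 conventional receptors 11 were tested and none passed with limma, of which 1 had an unadjusted p under 0.05, and edgeR called none. CXCR4 was at 36.5 and 32.5 in wild-type lines 1 and 7 and at 28.9 and 22.9 in knockout lines 1 and 5. All its values were above the limit, the last by a factor of 1.06, and its log2 fold change was -0.41 ± 0.34 (SE; adjusted p = 0.496, limma). XCR1, the lymphotactin receptor of cross-presenting dendritic cells, was at 30.3 and 43.6 against 27.8 and 30.2, where the fit gave -0.32 ± 0.34 on the log2 scale (SE; adjusted p = 0.592). In both genes the knockout values were below those of the wild type, and both 95% intervals included 0.

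CXCR3, the receptor for CXCL9, CXCL10 and CXCL11, was at 29.2 and 39.4 in wild-type lines 1 and 7 and at 17.8 and 18.7 in knockout lines 1 and 5. It was above the limit in both wild-type lines and in neither knockout line. Its log2 fold change of -0.86 ± 0.38 (SE; adjusted p = 0.233, limma) did not pass, and its adjusted p was 0.127 or more in all alternatives. CCR3, the eosinophil receptor, was at 26.1 and 22.2 against 16.7 and 15.6. It was also above the limit in the wild-type lines alone, but only by factors of 1.02 and 1.05, against 1.14 and 1.86 for CXCR3. The log2 fold change of CCR3 was -0.55 ± 0.42 (SE; adjusted p = 0.460, limma). In both genes the groups did not overlap. CCR4, found on helper T cells, was at 22.9 and 33.4 against 18.9 and 11.4. Its groups did not overlap either. CCR4 had a log2 fold change of -0.87 that did not pass (limma adjusted p = 0.309). This fold change was -1.20 when knockout line 1 was left out.

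The monocyte receptor CCR2 was at 25.04 and 28.2 in wild-type lines 1 and 7 and at 23.4 and 15.6 in knockout lines 1 and 5. CCR8, the receptor for CCL1, was at 18.8 and 31.7 against 17.8 and 15.6. The neutrophil receptor CXCR1 was at 25.04 and 27.4 against 24.5 and 12.5. In these 3 genes both knockout values were below the wild type. CCR10, the receptor for CCL27 and CCL28, was at 21.9 and 19.7 against 22.3 and 17.7. CX3CR1, the receptor for CX3CL1, was at 20.9 and 28.2 against 27.8 and 26.02. Both overlapped between groups, with log2 fold changes of -0.06 ± 0.41 and 0.14 ± 0.37 (SE). CX3CR1 was the third member, after CXCL16 and CCL2, with a log2 fold change above 0. CCR10 turned to 0.31 with cyclic loess and to 0.017 with the reference genes without TBP, so it has no settled direction.

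The atypical receptor ACKR4 was at 55.3 and 67.6 in wild-type lines 1 and 7 and at 67.9 and 36.4 in knockout lines 1 and 5. The knockout lines lay on either side of a wild-type value, and the log2 fold change of -0.29 ± 0.31 (SE; adjusted p = 0.592, limma) turned to 0.15 without knockout line 5. ACKR3, which takes up CXCL11 and CXCL12, was below the filter at 22.9 and 16.3 against 7.79 and 7.28. Its knockout values were below the wild type, but none of the 4 passed its limit. ACKR2, a scavenger of inflammatory CC chemokines, was between 3.12 and 9.41.

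Most tested members had a log2 fold change below 0, as did most other genes near background, and no member of a mean from 20 to 50 passed the test. Of the 27 tested members 24 had a log2 fold change below 0, against 57.6% of all tested genes, with a median of -0.45 against -0.04. Every tested member had a wild-type mean above 20, but several had a knockout mean below it, such as CCL17 (29.8 and 17.7) and CXCR3 (34.3 and 18.3). The filter thus leaned on the wild-type values of these members. With no filter 49 of 61 members were below 0, with a median of -0.45 against -0.13 over all genes. Over the 22 tested members with a mean from 20 to 50 the median was -0.47, and 21 were below 0. Over the 151 other tested genes of that level the median was -0.42, and 123 were below 0. With cyclic loess, which evens out shifts that depend on level, the median of the 27 was -0.12 and 22 were below 0. Both knockout values lay below both wild-type values in 28 of all 61 members, against 33.2% of all gene probes. Among probes with a mean under 50 this held for 27 of 56 members (48.2%) and for 153 of 388 others (39.4%).

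The shift differed between the knockout lines. Over all 61 members the median difference from the wild-type mean was -0.18 for knockout line 1 and -0.73 for knockout line 5 (log2(value + 1)). Knockout line 5 had the lowest value of the 4 lines in 41 of the 56 members with a mean under 50 (73.2%), and in 54.9% of the 388 other genes of that level. The median of the tested members was -0.73 when knockout line 1 was left out and -0.16 without knockout line 5, where 18 of 27 were below 0. The scaled mean of the negative control probes moved less, from 8.87 and 8.56 in wild-type lines 1 and 7 to 8.48 and 7.93 in knockout lines 1 and 5. The summed leukocyte markers given above were also lowest in knockout line 5, and the 5 tested markers had a median log2 fold change of -0.61, with 0 passing in limma, adjusted or not, and 0 in edgeR. The part of either in the shift was not tested.

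**Figure D4:**
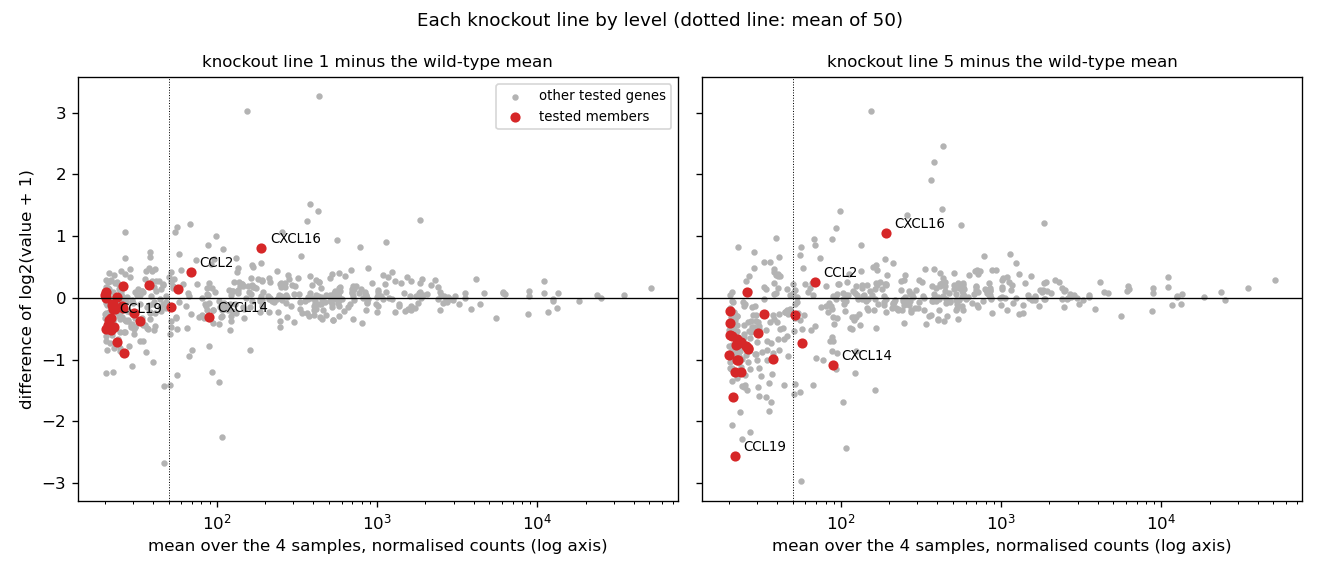
Difference of each knockout line from the wild-type mean (log2(value + 1)) against the mean level (log axis) for tested members (red) and other tested genes (grey), knockout line 1 left and knockout line 5 right. Left of the dotted line at 50 both sets lie mostly below 0 in knockout line 5, where the median over all members is -0.73, while CXCL16 lies above 0 in both panels.

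Members below the filter numbered 34, with means from 1.57 to 19.9. Just outside it were CCL21 at 19.9 and CXCR6 at 18.7, and just inside were CCL25 at 20.005 and CCR3 and CXCL5 at 20.2. None of the 34 had both knockout values above the wild type, and 13 had both below (38.2%). Over the 237 other genes with a mean under 20 the shares were 5.91% and 38.0%. In wild-type line 7 alone 12 members passed the limit, namely CCL18, CCL21, CCL3/L1/L3, CCR4, CCR6, CCR8, CCR9, CX3CL1, CXCL6, CXCL9, CXCR5 and CXCR6. Knockout line 1 alone had CCL24, CCR1, CCR10, CXCL8 and CXCR2 above its limit. CXCL8, the main human neutrophil attractant, was at 9.39 and 20.5 in wild-type lines 1 and 7 and at 20.03 and 9.37 in knockout lines 1 and 5.

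By location in RefSeq, the panel had 17 members on chromosome 17, which holds the main CC ligand cluster, and 2 of them, CCL2 and CXCL16, were above the limit in all samples, while 10 passed in none. On chromosome 4, which holds the CXC cluster, CXCL3 passed in all samples and 4 of 10 passed in none. On chromosome 3, where many CC receptors lie together, ACKR4 and XCR1 passed in all samples and 1 of 12, ACKR2, in none. Over all gene probes 49.6% passed in all samples and 25.4% in none. The counts are by whole chromosome and were not split by cluster.

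Outside the symbols used for selection, MIF, a cytokine that acts through CXCR2, CXCR4 and CD74, was well measured and rose. It was at 9584 and 9911 in wild-type lines 1 and 7 and at 11817 and 12347 in knockout lines 1 and 5. Both knockout values were above both wild-type values, and the log2 fold change was 0.31 ± 0.06 (SE; adjusted p = 0.00594, limma). The call was lost with positive control scaling (adjusted p = 0.082) and with limma without the trend (0.267). MIF came from a list of 14 chemokines under other names and ligand partners, of which 5 were measured and only MIF was tested. FPR1 and FPR2, formyl peptide receptors that guide neutrophils, were the next highest of that list, with means from 14.6 to 20.6 in either group.

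Signalling genes downstream of chemokine receptors were better measured than the receptors, and 26 of the 33 measured were above the limit in all 4 samples. The list held 85 genes. With limma 1 of the 27 tested rose and 0 fell, with a median log2 fold change of 0.05. Unadjusted limma p was under 0.05 for 5, against 19.8% of all tested genes, and edgeR called 1. Among the best counted genes of the list was the GTPase NRAS, with a log2 fold change of -0.12.

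Of 40 listed regulators of chemokine transcription 31 were measured and 24 tested with limma, and none passed. Unadjusted limma p was under 0.05 for 3, IFNGR2, JUN and NFKB2, against 19.8% of all tested genes, and edgeR called none. The median log2 fold change was 0.05. The 3 best counted were the interferon gamma receptor chain IFNGR2, with 0.25 ± 0.07 on the log2 scale (SE; adjusted p = 0.0598, limma; past the threshold in 4 of 15 alternatives), the transcription factor STAT3 at 0.17 ± 0.10 (SE) and the type I interferon receptor chain IFNAR1 at -0.02 ± 0.10 (SE). STAT3 was also in the signalling list, which shares genes with this one.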

How the data were processed

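The deposited table held 1 normalised signal per gene probe and sample and unscaled counts for 8 negative and 6 positive control probes. The submitters' processing notes name R 4.1.1; the normalisation method and any background treatment are not given in the sources used here. The deposited gene signal was made of whole multiples of 1 step per sample, so each signal was taken as the authors' count times a factor (1.04, 0.856, 1.11 and 1.04 for wild-type lines 1 and 7 and knockout lines 1 and 5). This held for 100.0% of values above 1.2 (tolerance 0.006). In wild-type line 7, 4 genes stood at a floor of 1, so its recovered counts rest on the step above that floor. Values at the lowest step may stand for 0 counts.

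Knockout and wild type were compared on log2(value + 1) for genes with a mean of 20 or more, using a 2-group limma fit (version 3.58.1, R 4.3.3) whose variance prior followed abundance; edgeR 4.0.16 (quasi-likelihood) on recovered counts was an alternative. P-values are two-sided, with Benjamini-Hochberg adjustment over all tested genes. The fit was also run on simulated counts with the same dispersion for every gene. That setting had no differences between the lines of a group beyond this dispersion, so it does not bear on those seen here. Fold changes on this scale understate the change of low genes.

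Members were chosen by symbol, and members, gene lists and tests were chosen with earlier results of these data known. Values in every sample are given for members above the limit in all samples or past the filter, and other members by count or name. From the lists the genes past the threshold and the 3 best counted are named. Some results are not reported here, a member that the plots leave out among them, although counts and medians cover every member; the members below the filter that the text gives by value were chosen after their values were seen.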

Additional observations from a re-analysis of the deposited data

How the results depend on the processing

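CXCL16 kept its call in all alternatives except limma without the trend, where 0 members passed. Without single samples 1 to 6 members passed; the 6, without knockout line 1, included CXCL16, CXCL14, CCL19, CCR4 and XCL1/2. Over all genes limma called 42, of which 32 were higher and 10 lower. Cyclic loess called 64 (35 higher, 29 lower) and limma without the trend 4 (2 and 2), and without single samples the number ran from 29 (without knockout line 5) to 77 (without knockout line 1, with 30 higher and 47 lower). The split was 54 and 8 with the reference genes without TBP. The number of members above the limit in all samples was 36 with the mean of the negative control probes as the limit, and ran from 7 to 11 without single samples, the 11 being without knockout line 5. The members' median log2 fold change stayed below 0 in all alternatives, from -0.74 with background subtraction to -0.12 with cyclic loess.

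Of members that were not called, CCR10 turned to 0.017 with the reference genes without TBP and to 0.31 with cyclic loess, and CXCL5 to 0.17 with cyclic loess. Without single samples CCR10 ran from -0.22 to 0.096, CXCL5 from -0.61 to 0.20, CX3CR1 from -0.067 to 0.35, ACKR4 from -0.73 to 0.15, CXCL2 from -0.997 to 0.20, CCL25 from -0.92 to 0.046 and XCL1/2 from -1.20 to 0.012. The cause was not tested. No paired analysis was possible because wild-type and knockout lines have just the number 1 in common. Members with low counts were measured less precisely: the median SE of the log2 fold change was 0.42 for tested members with a mean from 20 to 50 and 0.25 for those of 50 or more; the part of depth in this was not tested.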
